A study of Arabidopsis thaliana with 24 samples.

Results

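Etiolated seedlings of the Arabidopsis thaliana phyA mutant, which lack the photoreceptor phytochrome A, were compared with wild type seedlings after 1 h of continuous red light. The samples were chosen by their labels and make up 6 of the 24 arrays of the study, 3 from the phyA mutant and 3 from wild type, and the features are the 22746 of 22810 probe sets that are not array controls. All seedlings were grown in darkness for 4 days and harvested whole, so root, hypocotyl and cotyledon share 1 extract, and the red light had a wavelength of 680 nm and a fluence rate of 8 µmol per square metre per second. Further groups of 3 arrays each are drawn on where the same mutation or the same light could be tested on other samples: the phyAphyB double mutant against the phyB mutant in red light, the dark phyA mutant against dark wild type, and the red-lit against the dark phyB mutant. The sources used here name neither the mutant alleles nor the parental strain. The probe set table paired no probe set with PHYA or PHYB, so their signals were not analysed here and none of the genotype labels, phyB and phyAphyB included, was checked against the mutated gene. The labels call the 3 arrays of a group biological replicates without saying what was grown separately, so the p-values measure the spread between these samples.

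Phytochromes are red and far-red light receptors that move into the nucleus when light converts them to their active form, where they lead to the turnover of growth-promoting transcription factors and to the accumulation of factors such as HY5 that drive greening. Phytochrome A is the form that accumulates in dark-grown seedlings and is broken down quickly in the light, so it dominates the first response of an etiolated seedling and the response to far-red light. Phytochrome B is stable in the light and carries much of the response to prolonged red light, and the response comprises slower hypocotyl growth, cotyledon opening and the assembly of the photosynthetic apparatus.

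Each value is a MAS5 signal, the linear brightness that the Affymetrix software gives for 1 probe set on 1 array. The median signals of the 6 arrays were 184, 189 and 185 in phyA red seedlings, against 178, 186 and 183 in wild type red seedlings, and an array correlated with the others of its group at 0.968 to 0.973 in phyA red seedlings and at 0.977 to 0.978 in wild type red seedlings. The 25S ribosomal RNA control read 215.0 to 384 in phyA red seedlings and 126 to 269 in wild type red seedlings. On dark phyA replicates 2 and 3 it stood at 10508 and 13574, while dark phyA replicate 1 had 98.7. Dark differences are therefore also given without replicates 2 and 3. That leaves dark phyA replicate 1 alone, so only sizes are read there. Replicate 1 correlated with its group at 0.954, against 0.966 and 0.969 for replicates 2 and 3. Of the array's probe sets, 15085 were bright enough to test, and 6596 of these had no gene name in the table used here. Whole seedlings were sampled, so fewer cells of a type and less RNA per cell cannot be told apart.

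Red-lit phyA seedlings differed from red-lit wild type in 390 probe sets, which is 2.59% of the 15085 tested. Levels were higher in phyA for 157 probe sets (1.04%) and lower for 233 (1.54%), at an adjusted p under 0.05 in limma. The changes were mostly moderate, with a median size of 0.76 on the log2 scale among the called probe sets, and 37 rises and 68 falls reached 2-fold. In 385 of the 390 the 3 phyA arrays did not overlap with the 3 wild type arrays, whereas 2722 of all tested probe sets (18.0%) showed no overlap. The called probe sets comprised 178 with 1 gene, 8 shared by several genes and 204 without a name. The median difference over all tested probe sets was 0.016 on the log2 scale.

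**Figure D1:**
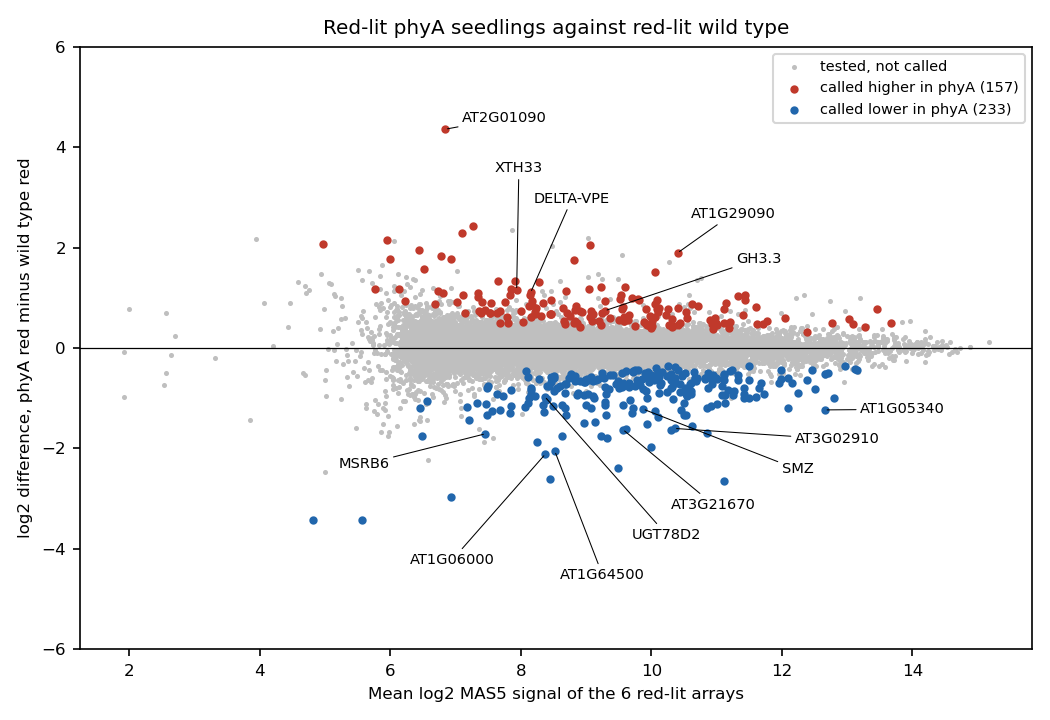
Each point is 1 of the 15085 tested probe sets, with its mean log2 MAS5 signal over the 6 red-lit arrays on the horizontal axis and the log2 difference, phyA red minus wild type red, on the vertical axis. Red points are the 157 probe sets called higher and blue points the 233 called lower in limma at an adjusted p under 0.05, and grey points were not called; AT2G01090 stands farthest above 0 at 4.36, and among the labelled falls AT1G06000 lies at -2.12.

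Named genes with lower levels in red-lit phyA seedlings included the repair enzyme MSRB6, the transporter NPF6.4, the flowering repressor SMZ and the flavonoid glucosyltransferase UGT78D2, at 1.96- to 3.27-fold below wild type. MSRB6 (AT4G04840), a methionine sulfoxide reductase that repairs oxidised methionine in proteins, read 76.6, 106 and 113 in phyA red seedlings, against 323, 350.3 and 283 in wild type red seedlings. All phyA arrays lay far below all wild type arrays, a 3.27-fold lower level by the means, but 2 of the 3 phyA arrays were under the 40th percentile of their array, the brightness used to choose probe sets for testing, where signals have no firm order. The log2 difference was -1.71 ± 0.26 (SE, n = 3 each; limma adjusted p = 2.2e-04). Dark seedlings read 90.5 ± 5.12 in phyA and 76.3 ± 25.1 in wild type (SD, n = 3 each), and all 6 dark arrays were under that percentile, so the red-lit phyA level was not set against the dark one. AT3G21670, which encodes the nitrate and peptide transporter family member NPF6.4, read 450.5, 419 and 423 in phyA red seedlings, against 1043, 1543 and 1466 in wild type red seedlings. The phyA values were close together and well under the lowest wild type array. Its log2 difference was -1.63 ± 0.19 (limma adjusted p = 6.5e-06), a 3.09-fold lower level.

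SMZ (AT3G54990), an AP2-type transcription factor known as a repressor of flowering, read 808, 494 and 584 in phyA red seedlings, against 1640.5, 1372 and 1305 in wild type red seedlings. The groups did not overlap, although phyA replicate 1 stood above the other phyA arrays. The log2 difference was -1.22 ± 0.16 (limma adjusted p = 2.2e-05), a 2.33-fold lower level. UGT78D2 (AT5G17050), the flavonoid 3-O-glucosyltransferase that adds glucose to flavonols and anthocyanidins, read 209, 276 and 228 in phyA red seedlings, against 489.8, 449.5 and 449.9 in wild type red seedlings. Every phyA array was lower, by a factor of 1.96 between the groups, and the log2 difference was -0.97 ± 0.18 (limma adjusted p = 0.002). In darkness the gene read 125 ± 12.3 in phyA and 120.0 ± 8.38 in wild type (SD, n = 3 each), so both red-lit groups stood above the dark ones. UGT76E2 (AT5G59590), another family 1 glycosyltransferase, read 1048, 1068 and 904 in phyA red seedlings, against 1460.1, 1474 and 1475 in wild type red seedlings. It fell by 0.55 on the log2 scale (limma adjusted p = 0.0079), and without phyA replicate 3 the limma adjusted p was 0.057.

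Of the genes that met the naming rule, AT1G06000 and AT1G64500 fell most, and the table gives both by locus alone. AT1G06000 read 171, 164 and 143 in phyA red seedlings, against 663, 755 and 657 in wild type red seedlings, a 4.34-fold lower level. AT1G64500 read 152, 218 and 175 in phyA red seedlings, against 798, 732 and 722 in wild type red seedlings, a 4.17-fold lower level. Neither gene had overlapping groups, and their log2 differences were -2.12 ± 0.33 (limma adjusted p = 2.4e-04) and -2.06 ± 0.20 (limma adjusted p = 2.9e-07). AT3G02910 read 726, 623 and 936 in phyA red seedlings, against 2579, 1901 and 2416 in wild type red seedlings, with a log2 difference of -1.60 ± 0.23 (limma adjusted p = 6.5e-05). AT1G73480 read 1398, 1230.5 and 1074 in phyA red seedlings, against 2842, 2796 and 2774 in wild type red seedlings, with a log2 difference of -1.19 ± 0.12 (limma adjusted p = 4.1e-07). The 3 wild type arrays of AT1G73480 nearly coincided, and every phyA array lay far below them. The other falls among the 14 largest were AT1G01390 (-1.27), AT1G05340 (-1.23), AT1G06200 (-1.23), GSTU18 (-1.17), AT5G35970 (-1.15), AT3G50560 (-1.14), AT3G14200 (-1.14) and AT1G02750 (-1.13). The call for AT3G14200 was lost without phyA replicate 2 (limma adjusted p = 0.073) and in a fit of the 6 arrays alone (limma adjusted p = 0.06), and that for AT1G02750 without phyA replicate 1 (limma adjusted p = 0.065).

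Further falls are described because their products are known, and they were chosen after their values had been seen. AT5G48570, which encodes the peptidyl-prolyl isomerase FKBP65 (ROF2), a binding partner of heat shock proteins, read 54.1, 42.7 and 49.6 in phyA red seedlings, against 182, 139.9 and 174 in wild type red seedlings. Every wild type array read over 2-fold above every phyA array, with a log2 difference of -1.76 ± 0.36 (limma adjusted p = 0.0055). All 3 phyA arrays were under their 40th percentile, and set at that percentile the level was at least 1.47-fold lower. BIM1 (AT5G08130), a bHLH partner of the brassinosteroid-regulated factor BES1, read 650.4, 644 and 682 in phyA red seedlings, against 1166, 1191 and 1006 in wild type red seedlings. Its phyA arrays agreed closely and its log2 difference was -0.76 ± 0.13 (limma adjusted p = 0.0011). UPB1 (AT2G47270), a bHLH factor that represses peroxidase genes in the root, read 1965, 2297 and 2410.3 in phyA red seedlings, against 4344, 3568 and 5337 in wild type red seedlings, with a log2 difference of -0.98 ± 0.15 (limma adjusted p = 2.6e-04). CYTC-2 (AT4G10040), a mitochondrial cytochrome c, read 466, 566 and 620.3 in phyA red seedlings, against 851, 906 and 937 in wild type red seedlings. Its groups did not overlap, its log2 difference was -0.71 ± 0.15 (limma adjusted p = 0.0056), and without phyA replicate 1 the limma adjusted p was 0.056.

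**Figure D2:**
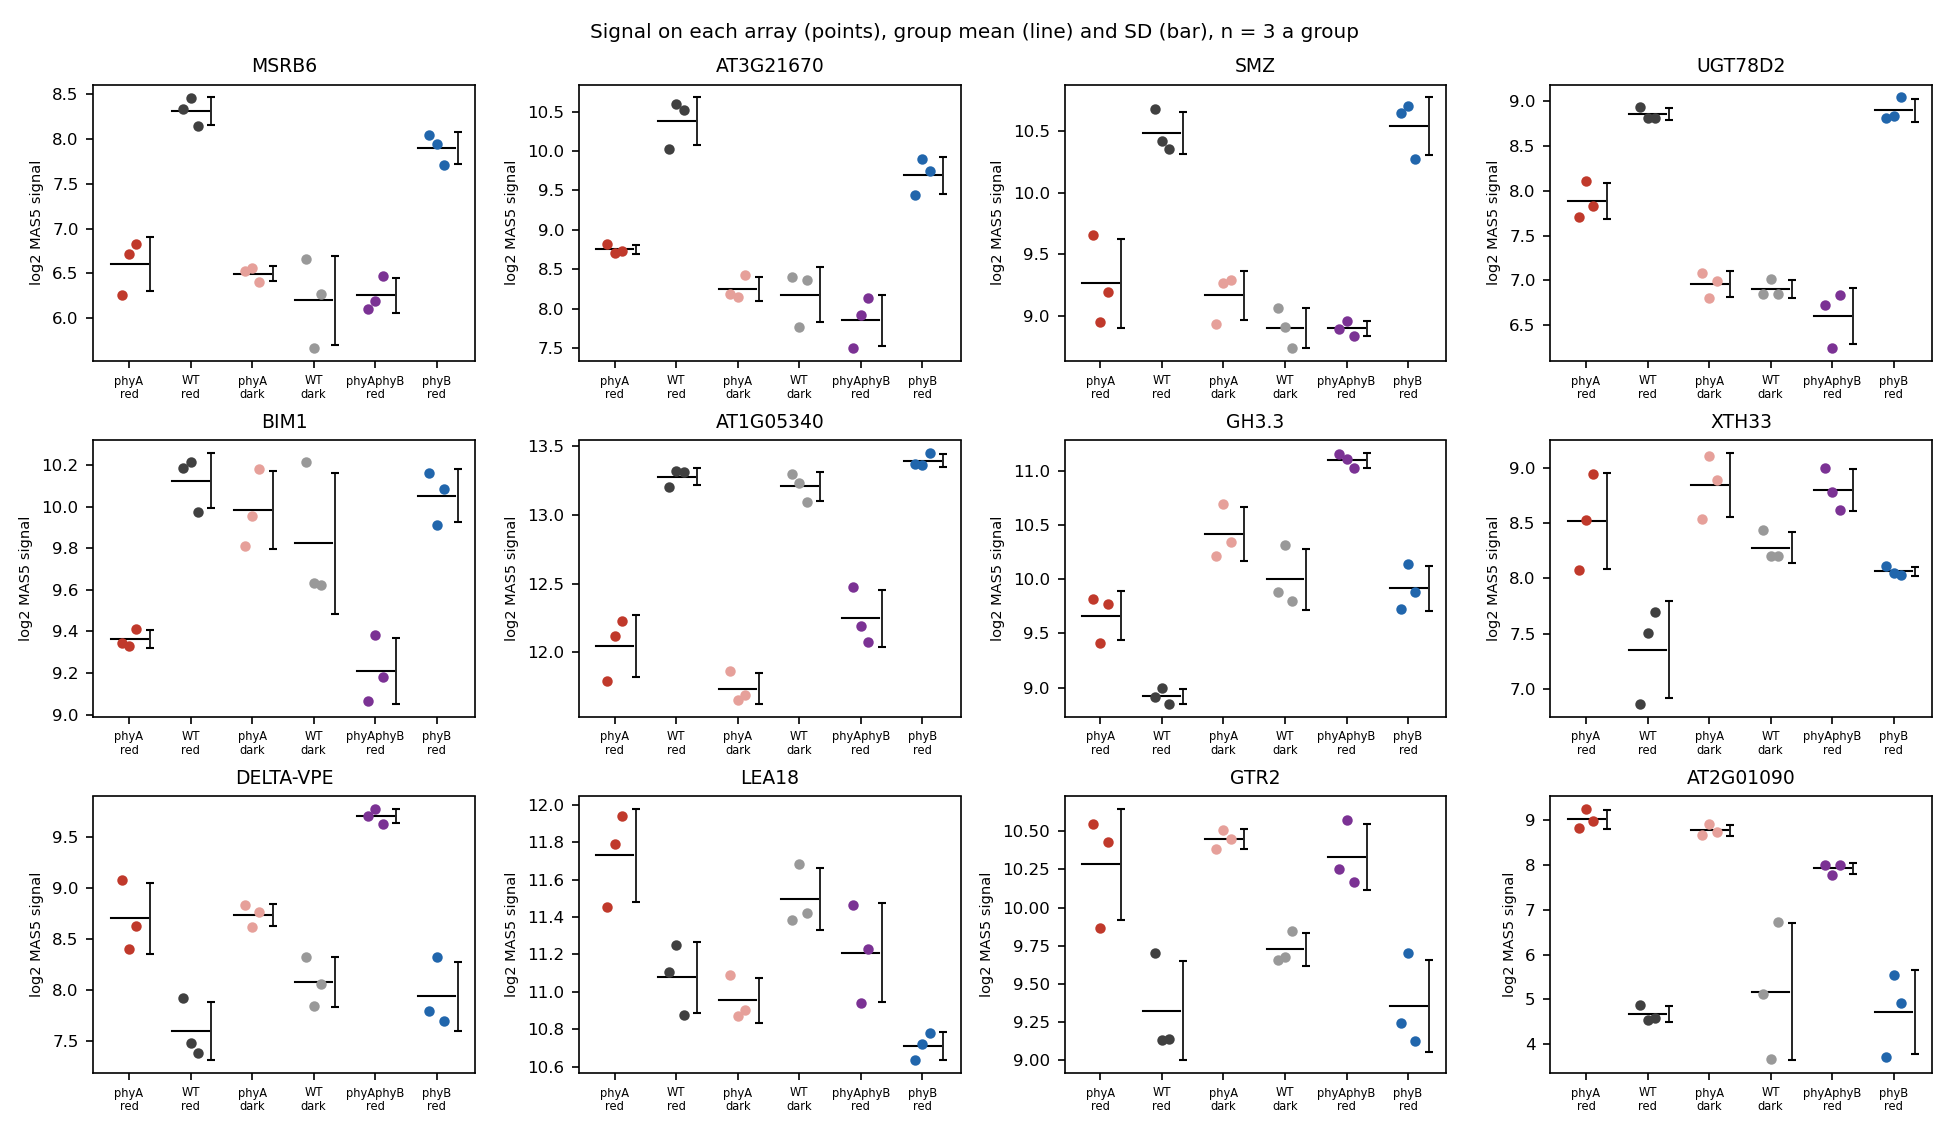
Log2 MAS5 signal of 12 genes on each array (points) for phyA red, wild type red, phyA dark, wild type dark, phyAphyB red and phyB red seedlings, with the group mean (line) and SD of the log2 values (bar), n = 3 a group. MSRB6, AT3G21670, SMZ, UGT78D2 and BIM1 show phyA red arrays below all wild type red arrays with dark groups that overlap or nearly do, while AT1G05340 and AT2G01090 differ between the genotypes in darkness as well.

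Named genes with higher levels in red-lit phyA seedlings included the auxin genes GH3.3 and WAG2, the cell wall genes XTH33, EXO and EXLA1, the protease DELTA-VPE and the glucosinolate importer GTR2, at 1.54- to 2.24-fold above wild type. GH3.3 (AT2G23170), an enzyme that conjugates the growth hormone auxin to amino acids, read 902, 679.7 and 871 in phyA red seedlings, against 482, 509.5 and 461 in wild type red seedlings. All phyA arrays were higher, with a log2 difference of 0.75 ± 0.15 (limma adjusted p = 0.0039) and a 1.68-fold higher level. WAG2 (AT3G14370), a kinase that phosphorylates auxin efflux carriers, read 509.8, 537 and 554 in phyA red seedlings, against 336, 353 and 294 in wild type red seedlings. The groups were well apart, with a log2 difference of 0.71 ± 0.16 (limma adjusted p = 0.012), but the call was lost without wild type replicate 3 or without phyA replicate 3 (highest limma adjusted p = 0.079). Dark seedlings read 495 ± 18.7 in phyA and 558 ± 23.6 in wild type (SD, n = 3 each), so the red-lit phyA seedlings stood near the dark level.

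Among cell wall genes, XTH33 (AT1G10550), a xyloglucan endotransglucosylase/hydrolase that cuts and rejoins wall polymers, read 269.7, 369 and 494 in phyA red seedlings, against 116, 182 and 207 in wild type red seedlings. Both groups spread widely without overlapping, and the log2 difference was 1.16 ± 0.21 (limma adjusted p = 0.0013). XTH33 lies 30 measured genes from PHYA on chromosome 1, a stretch described further on. EXO (AT4G08950), a protein of brassinosteroid-promoted growth, read 996, 1098 and 795 in phyA red seedlings, against 565, 618 and 682 in wild type red seedlings. EXO rose by 0.62 on the log2 scale (limma adjusted p = 0.017) without overlap, and the call was lost without wild type replicate 1, wild type replicate 2, phyA replicate 1 or phyA replicate 2 (highest limma adjusted p = 0.11). EXLA1 (AT3G45970), an expansin-like protein, read 1323, 1426 and 1625 in phyA red seedlings, against 989, 665 and 900.3 in wild type red seedlings. It rose by 0.79 on the log2 scale (limma adjusted p = 0.02), and the call was lost after median centring (limma adjusted p = 0.061) and without wild type replicate 2, phyA replicate 2 or phyA replicate 3 (highest limma adjusted p = 0.16).

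DELTA-VPE (AT3G20210), a vacuolar processing enzyme, that is, a cysteine protease that cuts after asparagine, read 543, 338 and 395 in phyA red seedlings, against 242, 178 and 167 in wild type red seedlings. The lowest phyA array was above the highest wild type array, and the log2 difference was 1.11 ± 0.21 (limma adjusted p = 0.0019). BETA-VPE (AT1G62710), of the same protease family and chosen after its values had been seen, read 1359, 1447 and 1394 in phyA red seedlings, against 989.5, 907 and 699.5 in wild type red seedlings. It rose by 0.71 on the log2 scale (limma adjusted p = 0.0053), with a limma adjusted p of 0.057 without wild type replicate 3. GTR2 (AT5G62680), a plasma membrane importer of glucosinolates, read 1494, 935 and 1381 in phyA red seedlings, against 833, 562 and 565 in wild type red seedlings. Replicate 1 was the highest array in both groups, the groups did not overlap, and the log2 difference was 0.96 ± 0.18 (limma adjusted p = 0.0024).

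LEA18 (AT2G35300), a late embryogenesis abundant protein of the group known for accumulating in drying seeds and water-stressed tissue, read 2807, 3546 and 3924 in phyA red seedlings, against 2206, 2433 and 1881 in wild type red seedlings. It rose by 0.65 on the log2 scale (limma adjusted p = 0.0073), and the call was lost without wild type replicate 3 or phyA replicate 3 (highest limma adjusted p = 0.067). AtLEA4-1 (AT1G32560), of the same protein group, read 2715, 2968 and 2998 in phyA red seedlings, against 2042, 1642 and 1429 in wild type red seedlings. Its phyA arrays all exceeded the wild type arrays, and the log2 difference was 0.78 ± 0.15 (limma adjusted p = 0.0029).

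Among the called genes whose groups did not overlap and whose brighter group exceeded the median tested signal of 402, the largest fitted rise was that of AT2G01090, which read 455, 610.1 and 509 in phyA red seedlings, against 29.2, 23.4 and 23.8 in wild type red seedlings. The fitted difference was 4.36 ± 0.50 on the log2 scale (limma adjusted p = 4.4e-06), but all 3 wild type arrays were under their 40th percentile, so the size is a bound: with wild type set at that percentile the level was at least 4.73-fold higher. AT1G29090 read 3167, 2024 and 2795 in phyA red seedlings, against 848, 833 and 489.6 in wild type red seedlings, with a log2 difference of 1.90 ± 0.23 (limma adjusted p = 1.2e-05). AT4G10910 read 930.3, 1248 and 1398 in phyA red seedlings, against 441, 524 and 565 in wild type red seedlings, with a log2 difference of 1.21 ± 0.14 (limma adjusted p = 8.0e-06). In neither of these genes did the groups overlap. The other rises among the 14 largest by this rule were AT1G08230 (1.21), AT1G12845 (1.18), AT1G02700 (1.13), AT1G11800 (1.07), AT3G02480 (1.06), AT1G12850 (0.98), AT4G11190 (0.98), AT2G01410 (0.96) and AT1G04680 (0.88), beside DELTA-VPE and GTR2. Dimmer genes that the brightness rule left out had called rises of similar or larger fitted size, among them AT1G12790 (2.43), AT1G12400 (2.29) and AT1G12730 (1.95), each with all 3 wild type red arrays under the 40th percentile. The call for AT2G01410 was lost without wild type replicate 1 or phyA replicate 3 (highest limma adjusted p = 0.068).

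Few genes of light signalling, greening and hormone pathways could be tested by name, and most of those did not pass. Genes that the table gives by locus alone were not matched to the lists and are not counted. The 19 gene lists held 437 genes, of which 69 were matched by symbol on the array and 60 could be tested. Of these 60, 5 rose, 2 fell and 53 did not pass, with a median log2 difference of 0.047. The share called, 11.7%, stands beside 2.59% of all tested probe sets, and the lists were drawn up with results of these data known, so nothing is read from it. Of 40 listed light signalling genes 2 were tested. HYH (AT3G17609), a bZIP factor related to HY5, read 99.9, 122 and 50.4 in phyA red seedlings, against 236, 202 and 217 in wild type red seedlings. The groups did not overlap, but signals of this brightness varied widely across the arrays and the difference of -1.36 ± 0.63 did not pass (limma adjusted p = 0.36). FHL (AT5G02200), which carries phytochrome A into the nucleus, read 276, 298 and 315 in phyA red seedlings, against 242, 290.0 and 302 in wild type red seedlings, and the ranges overlapped (0.10 ± 0.19; limma adjusted p = 0.91).

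HAT2 (AT5G47370), a homeodomain factor of the shade response and the 1 tested gene of its list, read 1683, 1478 and 1832 in phyA red seedlings, against 1376, 1009 and 1171 in wild type red seedlings, with a difference of 0.50 that did not pass (limma adjusted p = 0.06). Of 8 tested chlorophyll synthesis genes 0 passed, with log2 differences of -0.10 to 0.42. Of 3 antenna proteins 0 passed (-0.19 to 0.10), and of 7 photosystem and carbon fixation genes 0 passed (-0.48 to 0.03). In these 3 lists no difference was larger than 0.48 in size. GH3.3 and WAG2 were the 2 that rose among 6 tested auxin genes, whose median was 0.11. XTH33 and EXO were the 2 that rose among 10 cell wall loosening genes, whose differences were all above 0 with a median of 0.31. The wider family of 24 cell wall enzymes had a median of 0.11 and a range of -0.79 to 1.16. By symbol, UGT78D2 was the 1 that fell of 2 flavonoid genes and LEA18 the 1 that rose of 3 abscisic acid and late embryogenesis genes. MSRB6 was the 1 that fell of 6 redox genes matched by symbol. Listed genes that the table gives by locus alone are not counted, so further members may have changed.

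None passed among 3 gibberellin receptors (GID1A, GID1B and GID1C), the ethylene factor EIN3, the clock gene GI (-0.23), the zinc finger factor STZ (0.17) and 3 genes often used for normalization, TUB6, GAPC2 and PEX4 (-0.02 to 0.34). No nitrogen or polyamine gene of the list was matched by symbol, so the list says nothing of genes that the table gives by locus alone. Among such genes AT5G15950, which encodes an S-adenosylmethionine decarboxylase, was tested and called. Markers of organs and stages were few: the root hair expansin EXPA18 (0.12), the guard cell factor FMA (0.46) and the seed oil mobilisation enzyme ICL (0.05) did not pass. Among gene families recognised by their symbols, 0 of 27 glycosyltransferases rose and 2 fell, and 0 of 10 glutathione transferases rose and 1 fell (GSTU18). Of 24 cell wall enzymes 2 rose (XTH33 and EXLA1), and of 7 late embryogenesis proteins 2 rose (LEA18 and AtLEA4-1). Family members that the table gives by locus alone, as it does for many of the largest falls, are not in these counts. Of all tested probe sets 1.04% were called higher and 1.54% lower, and nothing is read from family counts this small. By symbol, none passed of 8 cytochrome P450 genes, 10 thioredoxins and glutaredoxins or 8 peroxidases. These counts too leave out members given by locus alone, so they do not show that no member of these families changed. None passed either of 6 genes with bHLH in their names, a group that leaves out the bHLH factors BIM1 and UPB1, which fell.

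Plastid-encoded genes mostly had differences above 0, but hardly any was called. Of 66 plastid-encoded genes 59 had log2 differences above 0, with a median of 0.63 against 0.016 over all tested probe sets, but 1 passed, psbM, a small subunit of photosystem II (0.77 ± 0.21; limma adjusted p = 0.047), and its call was lost without wild type replicate 1, wild type replicate 2, phyA replicate 2 or phyA replicate 3 (highest limma adjusted p = 0.32). Relative to all 24 arrays, the median plastid gene lay at 0.65, 0.53 and -0.27 in phyA red seedlings, against -0.66, -0.30 and 0.03 in wild type red seedlings. Thus phyA replicate 3 lay below wild type replicate 3 and the groups overlapped. Leaving out single arrays gave medians of 0.45 to 0.93. The same groups in the dark had a median difference of -0.29, and phyAphyB against phyB in red light one of 0.08.

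Probe sets that were lower in red-lit phyA seedlings were, for the most part, ones that red light raised in a mutant that still has phytochrome A. The phyB mutant, with its own dark and red arrays, shares no array with the comparison of phyA and wild type. Red light raised 540 probe sets in phyB seedlings (3.58% of those tested) and lowered 327 (2.17%). Of the 233 falls in phyA, 152 (65.2%) were raised by red light in phyB and 0 were lowered, so the falls make up 28.1% of what red light raised there. Of the 157 rises in phyA, 37 (23.6%) were lowered by red light in phyB and 2 (1.27%) were raised. Both shares stand far above the background of 3.58% and 2.17%. The other 81 falls and 118 rises had no call for red light in phyB.

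Among the named falls, AT1G64500 read 561, 459.5 and 480.4 in red-lit phyB seedlings, against 72.6, 102 and 69.8 in dark phyB seedlings (limma adjusted p = 8.8e-10), at least 4.71-fold higher with the dark arrays, all under their 40th percentile, set at it. MSRB6 read 264, 246 and 208 in red-lit phyB seedlings, against 47.2, 68.8 and 46.5 in dark phyB seedlings (limma adjusted p = 3.0e-06), at least 2.25-fold higher on the same reckoning. Every red-lit array of both genes was above every dark one. The rises in red light of SMZ (1.72), UGT78D2 (1.86), AT3G21670 (2.23) and BIM1 (0.52) also passed (largest limma adjusted p = 0.018). FKBP65 rose as well (limma adjusted p = 0.0096), at least 1.5-fold with its dark arrays, all under their 40th percentile, set at it. In the other direction GH3.3 read 847, 1126 and 944 in red-lit phyB seedlings, against 1986, 1539.7 and 1654 in dark phyB seedlings (-0.83 ± 0.15; limma adjusted p = 4.7e-04). EXO (-2.26) and WAG2 (-1.06) fell in red light as well, whereas DELTA-VPE (0.27), GTR2 (-0.38) and AtLEA4-1 (0.25) did not pass.

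The dark arrays of the same genotypes show which differences were already present before light. In the dark 349 probe sets were higher in phyA (2.31%) and 333 lower (2.21%). Of the 157 rises in red light 55 (35.0%) were also called higher in the dark, and of the 233 falls 55 (23.6%) were also called lower. The dark counts depend on the dark phyA arrays, and leaving out replicates 2 and 3 keeps only 1 of them. All 682 dark calls became 1443, 208 and 228 without dark phyA replicate 1, 2 or 3, and 273 and 233 without dark wild type replicate 2 or 3. The test of whether the genotype difference itself depended on light called 100 probe sets (0.663%), and these included 10 of the rises (6.37%) and 60 of the falls (25.8%). This test contains the 6 red-lit arrays, so a large red difference favours a call in it. Its 100 calls became 253, 60 and 56 without dark phyA replicate 1, 2 or 3, became 55 and 48 without dark wild type replicate 2 or 3, and became 50 and 65 without red wild type replicate 1 or 2. Without dark phyA replicates 2 and 3 this test rests on 1 dark phyA array, so its calls are not counted there. With all arrays the 60 light-dependent falls had a median difference of -1.0 in red light and 0.15 in the dark, where they ranged over -0.36 to 0.93.

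Light-dependent falls with named genes included MSRB6, AT3G21670, SMZ and BIM1, though for MSRB6 both dark groups were too dim to show a fall. AT3G21670 read 291, 284 and 344 in dark phyA seedlings, against 338, 218 and 329.6 in dark wild type seedlings. The dark groups overlapped, and the red difference minus the dark one was -1.70 ± 0.27 (limma adjusted p = 0.0021). SMZ read 489, 617 and 627 in dark phyA seedlings, against 534, 479.8 and 426 in dark wild type seedlings, and the difference between light conditions was -1.48 ± 0.22 (limma adjusted p = 9.4e-04). Without dark phyA replicates 2 and 3, with 1 dark phyA array left, the difference between light conditions was -2.04 for MSRB6, -1.63 for AT3G21670 and -1.25 for SMZ. For BIM1 it was -0.75, in place of -0.92 with all arrays. UGT76E2 read 985, 1400.5 and 1436 in dark phyA seedlings, against 826, 820.3 and 712 in dark wild type seedlings, so with all arrays it was higher in phyA in the dark (0.68 ± 0.12; limma adjusted p = 0.0023) and lower after red light. Without those 2 dark arrays its dark difference was 0.33. LEA18 had the opposite pattern, with 2184, 1873 and 1914 in dark phyA seedlings, against 2676, 3289 and 2738 in dark wild type seedlings (-0.54 ± 0.14; limma adjusted p = 0.029), and without the pair this dark call was lost (-0.40; limma adjusted p = 0.4), as was the call for its dependence on light (limma adjusted p = 0.051).

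Other differences stood in both light conditions. AT1G05340 read 3551, 4438 and 4791 in phyA red seedlings, against 9449, 10205 and 10180.5 in wild type red seedlings, and 3728, 3219 and 3300.0 in dark phyA seedlings, against 10086, 9639 and 8724 in dark wild type seedlings. The log2 differences were -1.23 ± 0.12 in red light and -1.47 ± 0.12 in the dark (limma adjusted p = 4.2e-07 and 1.8e-07), with no call for a dependence on light (limma adjusted p = 0.61). AT2G01090 was higher in phyA with fitted differences of 4.36 in red light and 3.61 in the dark, GTR2 by 0.96 and 0.72, and AT1G06200 lower with -1.23 and -1.18. AT1G05340 and AT1G06200 lie 132 and 108 measured genes before PHYA on chromosome 1, on a stretch described further on. UPB1 also fell in the dark (-0.67; limma adjusted p = 0.016). Without dark phyA replicates 2 and 3, which leaves 1 dark phyA array, the dark differences were -1.34 for AT1G05340, 3.51 for AT2G01090 and -1.03 for AT1G06200. Those of GTR2 and UPB1 were 0.65 and -0.61. No call is read from that fit.

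**Figure D3:**
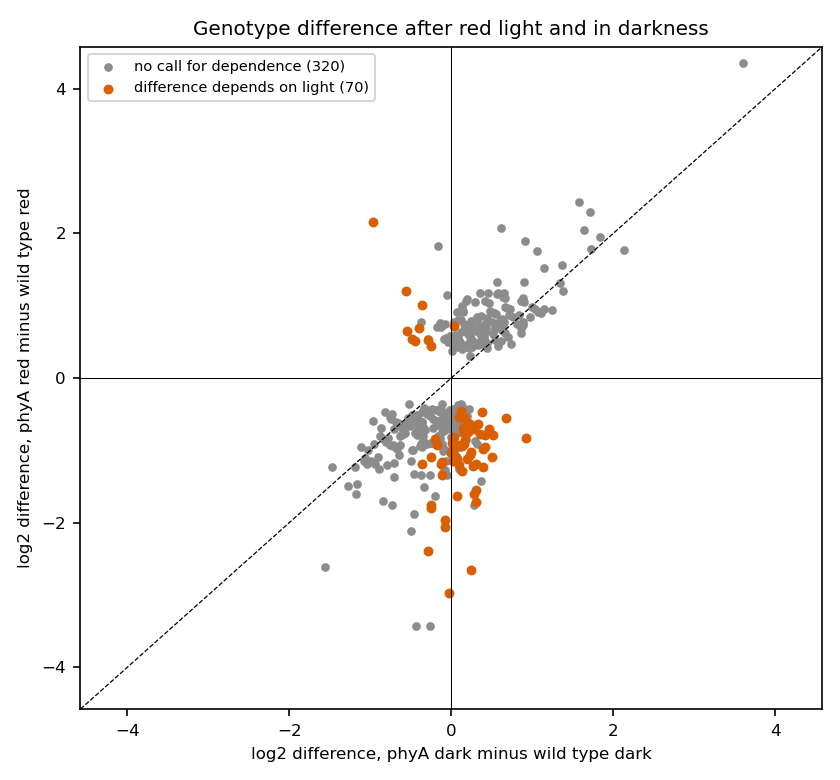
Log2 difference phyA minus wild type after red light (vertical axis) against the same difference in darkness (horizontal axis) for the 390 probe sets called after red light. Orange points are the 70 whose difference was called as depending on light, grey points the other 320, and the dashed line marks equal differences; 60 of the orange points are falls, with a median of 0.15 and a range of -0.36 to 0.93 on the horizontal axis.

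The same mutation was tested on separate arrays in seedlings without phytochrome B. In red light the phyAphyB double mutant had 1303 probe sets higher (8.64%) and 1256 lower (8.33%) than the phyB mutant. Of the 390 calls in phyA, 373 (95.6%) had the same sign there and 300 (76.9%) were called in the same direction, which is 11.7% of the calls in the phyB background. Of the falls 195 of 233 (83.7%) were shared and of the rises 105 of 157 (66.9%), and 7 calls were opposite. The median difference of the 233 falls was -0.79 with phytochrome B present and -0.92 in its absence, and that of the 157 rises 0.74 and 0.61. All groups entered 1 fit and share its estimate of the spread, although these arrays are disjoint from the 6 first compared. The phyB red arrays also served in the comparison of red-lit with dark phyB seedlings, so that comparison and this one are not independent of each other.

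MSRB6 read 68.7, 73.2 and 89.0 in phyAphyB red seedlings, against 264, 246 and 208 in phyB red seedlings (limma adjusted p = 6.0e-05), at least 2.22-fold lower with the phyAphyB arrays, all under their 40th percentile, set at it. BIM1 read 536, 667 and 579.6 in phyAphyB red seedlings, against 1146, 964 and 1086 in phyB red seedlings (-0.84 ± 0.13; limma adjusted p = 5.5e-05). Both genes fell in this background too. For BIM1 the difference between these falls was 0.08 ± 0.19 (limma adjusted p = 0.91), and for MSRB6, with its low groups dim in both backgrounds, it is not read. FKBP65 fell to dim signals here too, at least 1.47-fold lower. GTR2 rose by 0.97, WAG2 by 0.77, EXLA1 by 0.85 and AT1G29090 by 1.71, none with a call for a dependence on phytochrome B.

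A dependence on phytochrome B was called for 66 of the 390 (16.9%), against 4.4% of all tested probe sets; this test contains the 6 arrays that chose the 390, so the share is given without a reading. UGT78D2 read 106, 75.8 and 114 in phyAphyB red seedlings, against 447, 457 and 527 in phyB red seedlings. The phyAphyB arrays lay under every phyA red array, and the fall of -2.29 in the phyB background differed from that of -0.97 by 1.32 ± 0.26 (limma adjusted p = 0.0021). AT3G02910 behaved likewise, with -3.02 in the phyB background (limma adjusted p for the dependence = 0.0083). EXO read 3711, 4185 and 3881 in phyAphyB red seedlings, against 539, 568 and 789.9 in phyB red seedlings, a difference of 2.65 ± 0.15 (limma adjusted p = 3.3e-12). The rise of EXO was thus much larger without phytochrome B than with it (dependence -2.03 ± 0.21; limma adjusted p = 5.6e-07).

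Some genes that missed the threshold in the presence of phytochrome B passed in its absence, and IAA29 and GI are given here after their values had been seen. HYH read 30.7, 41.9 and 24.6 in phyAphyB red seedlings, against 189, 178 and 226 in phyB red seedlings (limma adjusted p = 0.0042), at least 1.83-fold lower with the dim phyAphyB arrays set at their 40th percentile, but its dependence on phytochrome B was not called (limma adjusted p = 0.58). IAA29, a repressor of auxin responses, read 136, 151 and 143 in phyA red seedlings, against 112, 109 and 152 in wild type red seedlings, with overlapping groups. It read 273, 308 and 296 in phyAphyB red seedlings, against 146, 80.2 and 121 in phyB red seedlings (1.38 ± 0.20; limma adjusted p = 2.2e-05), and here the dependence was called (-1.16 ± 0.29; limma adjusted p = 0.018). GI read 1663, 1545 and 1570.1 in phyA red seedlings, against 1912, 1698 and 2015 in wild type red seedlings, and did not pass, while in the phyB background it fell (-0.75; limma adjusted p = 1.3e-04) with no call for a dependence (limma adjusted p = 0.12). AT4G11190 went opposite ways: it rose in phyA, with 1005, 981 and 1125 in phyA red seedlings, against 552, 513 and 512 in wild type red seedlings, and fell in phyAphyB, with 811, 728 and 821 in phyAphyB red seedlings, against 1019, 1352 and 1372 in phyB red seedlings (limma adjusted p for the dependence = 6.8e-05).

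**Figure D4:**
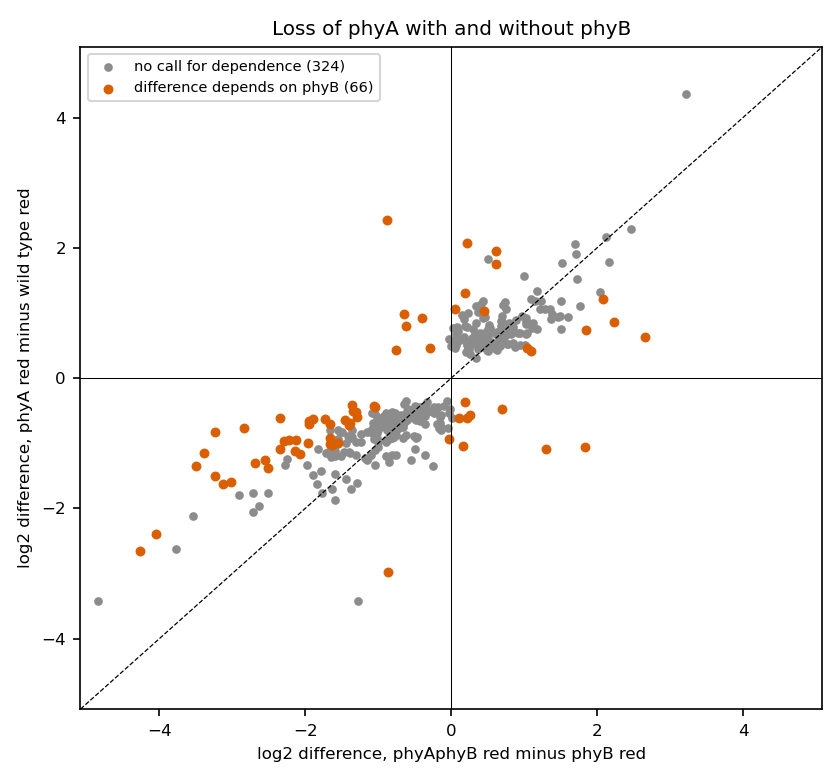
Log2 difference phyA minus wild type in red light (vertical axis) against phyAphyB minus phyB in red light (horizontal axis) for the 390 probe sets called on the vertical axis. Orange points are the 66 called as depending on phytochrome B, grey points the other 324, the dashed line marks equal differences, and 373 points have the same sign on both axes.

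Calls were denser on the stretch of chromosome 1 that holds PHYA. From the start of the chromosome to 400 measured genes past PHYA 53 of 667 genes were called (7.95%), and on the rest of the chromosome 25 of 1409 (1.77%). Among the 200 measured genes nearest to PHYA, 100 to either side, 25 were called (12.5%), against 153 of 7880 elsewhere (1.94%), a count that still holds the genes farther before PHYA, where 12 of the next 100 and 11 of the last 67 were called. Of the 14 largest rises 6 lie on this stretch, as do 6 of the 14 largest falls. Outside the 200 nearest genes, 42 of 153 calls (27.5%) were also called in the dark and 114 (74.5%) in phyAphyB against phyB. Of the 25 nearest calls, 10 were also called in the dark and 17 (68.0%), no larger a share, in phyAphyB against phyB. Among them were AT1G10050, which encodes the xylanase ATXYN2 (1.77 in red light, 2.13 in the dark), XTH33, GSTU18, the flavin monooxygenase gene FMO (1.33), the disease resistance gene LOV1 (1.57) and the histone gene HTB1 (0.74, lost without wild type replicate 2 at a limma adjusted p of 0.12). The light-dependence of these neighbours was called for 1 of 25, and 0 of their falls were red-induced in phyB, against 28 of 153 and 56 falls of 87 elsewhere. The wild type red arrays of AT1G10050 and LOV1 were all under their 40th percentile, and against it the rises were at least 1.07-fold and 1.43-fold. Outside chromosome 1, 100 of 6004 genes were called (1.67%), 45 higher and 55 lower. Of these 100 calls 17.0% were also called in the dark, against 56.6% of the 53 calls on the stretch. The part that position had in the calls was not tested.

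**Figure D5:**
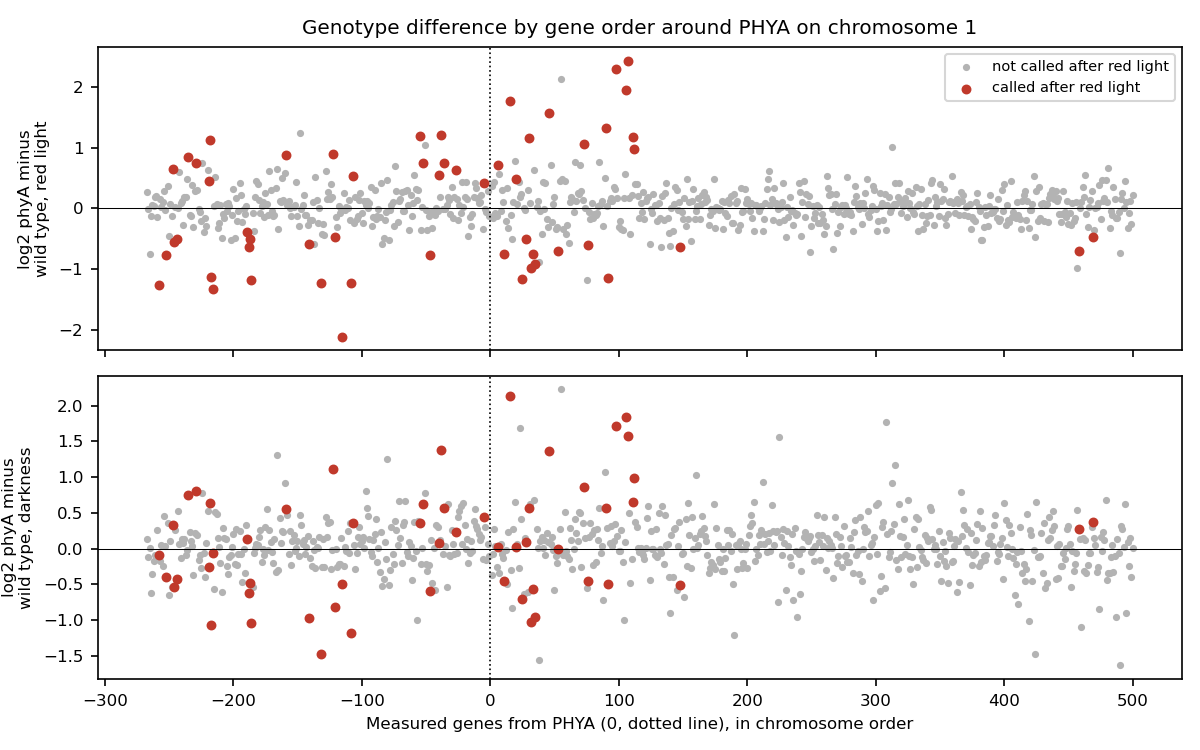
Log2 difference phyA minus wild type in red light (upper panel) and in darkness (lower panel) for measured genes of chromosome 1, placed by their count of measured genes from PHYA at the dotted line. Red points were called in red light; they number 11, 12, 8, 17 and 5 in the bins from 300 genes before to 200 genes past PHYA, and 0 in the next bins of 100 genes up to 400 genes past it.

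Some of the largest differences belonged to probe sets without a gene name. Probe set 249063_at read 922, 1026 and 716 in phyA red seedlings, against 5921, 5487 and 5218 in wild type red seedlings (-2.66 ± 0.20; limma adjusted p = 1.7e-08), and 429, 277 and 271 in dark phyA seedlings, against 284, 272 and 251 in dark wild type seedlings. Red-lit phyA seedlings thus stood between the dark level and the red-lit wild type level. Probe set 249769_at read 383, 375 and 216 in phyA red seedlings, against 1721, 1611 and 1623 in wild type red seedlings (-2.39 ± 0.21; limma adjusted p = 7.1e-08). In the other direction 265044_at read 1048, 1127 and 1085 in phyA red seedlings, against 328, 185 and 298 in wild type red seedlings (2.05 ± 0.19; limma adjusted p = 1.5e-07). It was higher in dark phyA seedlings too (1.64 ± 0.19; limma adjusted p = 1.1e-05).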

How the data were processed

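The authors deposited 1 linear intensity for each probe set on each array; per the submitters' processing notes the software was MAS5. Its version, the scaling target and the genome build were not given in those notes. The trimmed mean signal (2% off each end) was 500.04 on all 24 arrays, so values were kept. The 64 control probe sets were left out, a probe set was tested where it exceeded its array's 40th percentile on at least 3 arrays (15085 of 22746), and log2 was taken without a pseudocount. Gene names came from the platform annotation, updated through the TAIR10.1 gene table.

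Using limma 3.58.1 under R 4.3.3, the means of 8 groups were estimated in 1 model (lmFit, contrasts.fit, eBayes with intensity trend), with two-sided tests, Benjamini-Hochberg adjustment over all tested probe sets and a call at an adjusted p under 0.05. The procedure was tested on simulated data. By rule, the genes named were the 14 largest rises and falls among calls with 1 gene, no overlap and a brighter group above the median signal of 402, up to 4 called members of a list and 3 of a symbol family, called genes within 100 measured genes of PHYA, 4 rises and 4 falls of each contrast with the phyB background, and all tested light signalling genes. Genes outside it are said to be chosen after their values were seen. Members, lists and rules were chosen with earlier results of these data known. The symbol CHI was dropped from the flavonoid list because the table gives it to a chitinase, and XTH genes were dropped from the glycosyltransferases. The alternatives were quantile normalization, median centring, a pseudocount, a 60th percentile filter, testing without a filter, no trend, fits of the compared groups or of the red arrays alone, array weights, leaving out dark phyA replicates 2 and 3, a replicate block, and leaving out each array in turn. The contrast of red-lit with dark phyB seedlings was added after seeing the data. The number of arrays limits the precision.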

Additional observations from a re-analysis of the deposited data

Results flagged for a closer look

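The values here are log2 differences between differences, each called in limma at an adjusted p under 0.05, so each result differed between light conditions or between the presence and absence of phytochrome B. Over all tested probe sets, 663 were called by phytochrome B and 100 by light. The cause was not tested for any of these.

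The phyA effect in red light minus that in the dark was 1.78 for AT4G10910, 1.19 for LEA18 and 0.68 for AT1G09750, the last a gene 6 measured genes from PHYA. It was -1.99 for AT1G64500, -1.70 for AT3G21670, -1.88 for AT3G02910, -1.48 for SMZ, -0.83 for AT1G73480, -1.18 for AT5G35970, -2.01 for MSRB6 and -1.23 for UGT76E2. For MSRB6 and AT1G64500 all 6 dark arrays were under their 40th percentile, so a fall in the dark could not have been seen. Without dark phyA replicates 2 and 3 the calls of LEA18 (limma adjusted p = 0.051) and AT5G35970 (-0.86; limma adjusted p = 0.27) were lost, and the other 9 held.

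The phyA effect with phytochrome B present minus that in its absence was 1.02 for AT3G02480, 1.63 for AT4G11190, 1.41 for AT3G02910, 1.32 for UGT78D2, -0.87 for AT1G08230 and -2.03 for EXO. AT2G16005 fell in phyA (-1.06) and rose in phyAphyB (1.83), a difference of -2.89. Larger values came from genes with no call in phyA against wild type: -6.30 for AT5G23830, -4.23 for AT2G25450, 6.76 for AT1G23960, 4.94 for AT4G29200, 4.34 for AT4G04460, 4.24 for AT4G02540 and -2.57 for AT2G22510. Where a group was under the 40th percentile of its arrays, as phyB red in AT5G23830, phyAphyB red in AT1G23960 and phyA red in AT2G16005, these fitted values do not give a size. In AT5G23830 the phyB red group alone stood apart, with a mean signal of 694 in phyAphyB red and 13.7 in phyB red seedlings, against 559 in phyA red and 628 in wild type red seedlings. In AT2G25450 it did so too, with 10053 in phyAphyB red and 523 in phyB red seedlings. In AT4G04460 the phyAphyB red group stood apart, with 175 in phyAphyB red and 3035 in phyB red seedlings, against 3445 in phyA red and 2975 in wild type red seedlings.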

How the results depend on the processing

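The 390 calls of phyA red against wild type red became 314 to 562 under the 11 other settings, the highest with array weights, and 294 to 351 without single arrays. After median centring 112 were higher and 254 lower. Whether replicate numbers pair the samples is not stated, and not every same-number correlation of deviations exceeded 0.1 (0.167, 0.0842 and 0.0338 between phyA red and wild type red), so they were not treated as pairs; as a hint from the data, 5 of these 6 arrays, and 6 of 6 of the phyAphyB and phyB red arrays, correlated best with their own number. The replicate block gave 391 calls, 2499 for phyAphyB against phyB, and 593 for the dark comparison. The dark comparison, with 682 calls, was less stable: 99 in a fit of its 6 arrays alone, 135 without dark phyA replicates 2 and 3, 2771 with array weights and 208 to 1443 without single arrays; it had 157 higher and 384 lower after median centring and 292 higher and 369 lower after quantile normalization. The 100 light-dependent calls became 60 after median centring, 39 in a fit of the compared groups alone, 477 with array weights and 48 to 253 without single arrays. Calls shared by red light and darkness, 110, became 49 with the compared groups alone and 202 with array weights. Of 81 genes named for phyA against wild type, 44 kept their call in all 17 settings, 177 of 1370 gene settings lost it and 0 reversed. At low signal the log2 values scatter more, which limits what can be called there.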
